A study of Mus musculus with 31 samples.

Results

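Mouse embryonic fibroblasts were compared 1 day after infection with retroviruses for 4 reprogramming factors and before any virus was given. The comparison was defined by the array titles, which gave 4 of the 31 arrays of the series: 2 of infected cells on day 1 and 2 of uninfected cells on day 0, paired by replicate number. The series follows such fibroblasts for up to 12 days on single-colour Affymetrix whole-transcript arrays, after infection with all 4 factors, with 3 of them, or with a GFP virus. The fibroblasts of every group were grown in DMEM with fetal bovine serum.

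The infected group, called 4F, had received Oct4 (gene symbol Pou5f1), Sox2, Klf4 and c-Myc by retrovirus and was collected on day 1. The uninfected group had received no virus and was collected on day 0. The 2 arrays of a GFP retrovirus on day 1 are given beside them, because the step from day 0 to 4F day 1 holds the virus, 1 day of culture and the 4 factors together, which these 4 arrays alone cannot tell apart. In each group replicate 1 was labelled from 120 ng of RNA and replicate 2 from 300 ng. The labels name biological replicates but no separate embryos, cultures or infections, so p-values measure the spread between numbered replicate arrays. In the main fit this is the spread left after the mean replicate difference over the 12 groups is taken out. That spread may be partly technical. The limma errors come from 24 arrays of 12 groups, so replicates of later days enter them beside the arrays compared here. The labels also do not give the share of cells infected, and in RNA from a whole culture a change in the number of cells of a type and a change in RNA per cell cannot be told apart.

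Oct4, Sox2, Klf4 and c-Myc are transcription factors that together can turn a fibroblast into a pluripotent stem cell over days to weeks. Fibroblasts are adhesive, contractile cells, and much of their gene activity is driven by serum and by attachment, through SRF with its MRTF cofactors and through YAP and TAZ with TEAD factors. Both routes respond to the state of the actin cytoskeleton. c-Myc is best known for raising genes of ribosome assembly and nucleotide synthesis, and the earliest described steps of reprogramming include loss of fibroblast genes and a mesenchymal-to-epithelial transition.

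Signals are log2 values as deposited, so a difference of 1 is a 2-fold ratio of signal, and values lay between 4.27 and 14.33. Of 28853 probe sets, 21789 carried 1 gene symbol and gave 19938 genes. Replicate arrays correlated across genes at 0.992 on day 0, 0.993 in 4F cells and 0.989 in GFP cells. The 15 markers listed for fibroblasts had a mean signal of 9.98 and 10.12 on the day 0 arrays. On the 4F arrays it was 9.80 and 10.00. Fap (5.59) and Lum (5.82) read lowest on the first day 0 array, and the next lowest, Dcn, read 8.89. Vim, an intermediate filament gene, read 13.2 there. None of the 15 markers passed the test between 4F day 1 and day 0 (limma, 1 at an unadjusted p under 0.05). Between 4F and GFP cells all 15 lay below 0, with a median of -0.48 and 1 called lower in limma, where 1.29% of all genes were.

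In 4F cells 368 genes, or 1.85% of those tested, differed from day 0 at an adjusted p under 0.05 (limma with the replicate number as a block, Benjamini-Hochberg adjustment over all genes). Of these, 209 were higher (1.05%) and 159 lower (0.797%). The called differences ran from 0.307 to 3.22 in absolute log2 size, with a median of 0.763, and 65 higher and 45 lower genes differed by at least 1. The median over all genes was -0.009. At an unadjusted p under 0.05 in limma there were 2133 of the 19938 genes. For GFP cells against day 0 there were 2571, and for 4F against GFP cells 3532. The count depended on the block and on each array: without the block 102 genes were higher and 65 lower, without 4F replicate 1 the counts were 39 and 17, without 4F replicate 2 they were 58 and 32, without day 0 replicate 1 they were 43 and 41, and without day 0 replicate 2 they were 148 and 72. None of the 368 genes changed sign in any of these fits, which share arrays with the fit that called them. All 368 had the same sign in both pairs, which left little room for a change of sign.

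**Figure D1:**
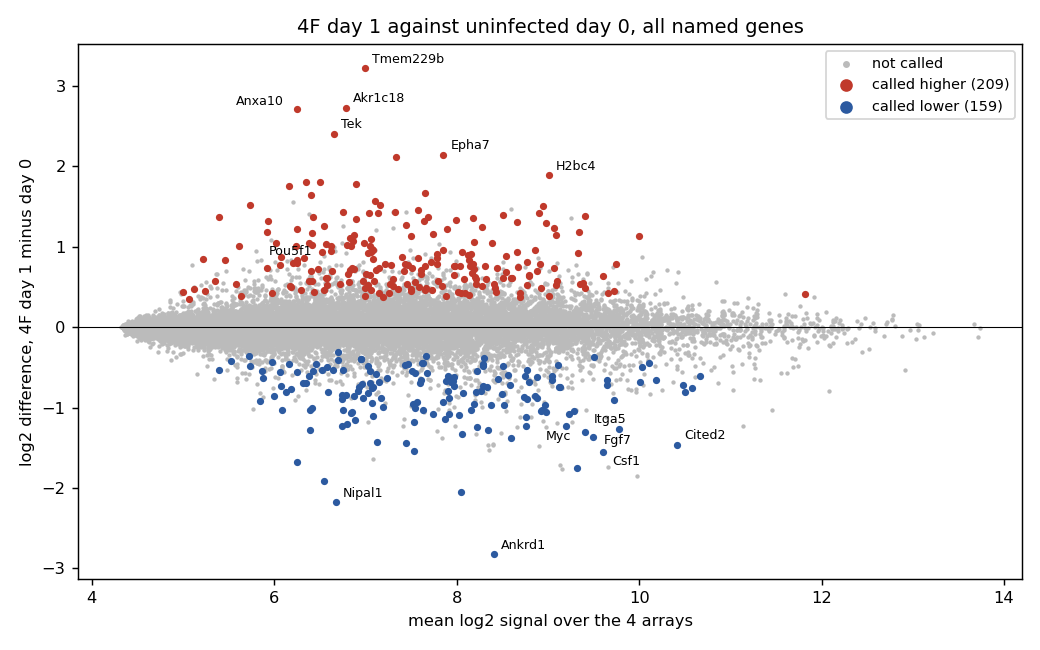
Each point is 1 of 19938 genes: the x axis gives its mean log2 signal over the 4 arrays and the y axis its log2 difference, 4F day 1 minus uninfected day 0. Red points are the 209 genes called higher and blue points the 159 called lower. Tmem229b at 3.22 and Ankrd1 at -2.83 lie furthest from 0, and the delivered factors Pou5f1 and Myc, also marked, were not called.

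None of the 4 delivered factors passed the test on day 1, and 2, Pou5f1 and Myc, had an unadjusted p under 0.05 in limma. Pou5f1 read 5.66 and 5.23 on day 0 and 6.30 and 6.26 in 4F cells, so its 2 groups did not overlap. The difference of 0.83 ± 0.38 (SE from the fit to 24 arrays, n = 2 arrays per group) had an adjusted p of 0.454 in limma. Replicates of later 4F days, such as 8.37 and 9.58 on day 8, enter that error. Sox2 read 5.66 and 5.98 on day 0 and 5.74 and 6.13 in 4F cells, overlapping ranges with a difference of 0.12 ± 0.26. Klf4 was already well within the signal range in uninfected fibroblasts, at 8.02 and 7.50, and read 7.52 and 7.61 in 4F cells. Myc read 9.70 and 9.58 on day 0, 7.84 and 8.50 in 4F cells and 8.46 and 8.76 in GFP cells. Both infected groups lay below day 0 and overlapped each other, also in the cells given a Myc virus. The 4F difference from day 0 was -1.47 ± 0.48 (limma adjusted p = 0.181) and that from GFP cells -0.45 (limma adjusted p = 0.742). Which stretch of each transcript the probes read, and the species of the delivered cDNAs, are not given in the sources used here, so these signals are no measure of delivery. On later days the mean Pou5f1 signal in 4F cells was 6.49 on day 2, 7.56 on day 5 and 9.93 on the single day 10 array, and Sox2 stood at 6.12 on day 5 and 9.25 on day 10. Within the MYC network list of 11 genes, 1 passed: Mxi1, a MAX-binding antagonist of MYC, rose by 0.47 (limma adjusted p = 0.0481), a call lost under every left-out array, without the block, with trended moderation and under both other scalings. Max, the partner of MYC, differed by 0.46 without passing (limma adjusted p = 0.11).

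**Figure D2:**
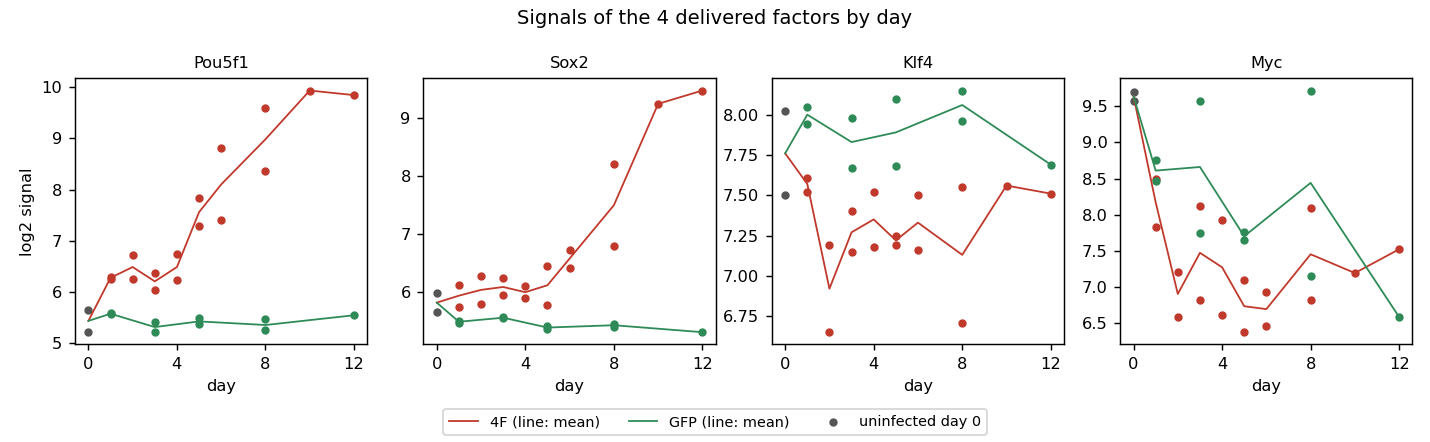
Log2 signal of the 4 delivered factors (y axis) against day (x axis); each point is an array, red for 4F, green for GFP and grey for uninfected day 0, and lines join the means. On day 1 Pou5f1 stood at 6.30 and 6.26 in 4F cells above both day 0 arrays, Sox2 and Klf4 overlapped day 0, and Myc lay below both day 0 arrays in 4F and in GFP cells.

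The 15 largest rises were led by genes with low signals in uninfected fibroblasts. Tmem229b, a gene for a membrane protein, read 5.49 and 5.27 on day 0, 8.50 and 8.70 in 4F cells, and 5.80 and 5.18 in GFP cells. Only the 4F arrays were high, and the difference from day 0 was 3.22 ± 0.23 (limma adjusted p = 7.13e-06). A second probe set of the gene gave 2.16. Akr1c18, which encodes the enzyme that inactivates progesterone, read 5.42 on both day 0 arrays, 7.40 and 8.90 in 4F cells, and 5.19 and 5.60 in GFP cells. Its 4F arrays differed from each other, yet both lay far above the other 4 arrays, and the rise was 2.73 ± 0.31 (limma adjusted p = 0.000414). Anxa10, a calcium-dependent membrane-binding annexin, read 4.89 on both day 0 arrays, 7.20 and 8.01 in 4F cells, and 4.87 and 4.93 in GFP cells. Its day 0 signal lay at the 14.8th percentile of all genes and no detection calls were used, so whether any transcript was present on day 0 was not tested.

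Several of the rises were receptors and ligands. Tek, the receptor for angiopoietins, read 5.42 and 5.48 on day 0 and 7.72 and 7.99 in 4F cells, a rise of 2.40 ± 0.26 (limma adjusted p = 0.000238). The GFP arrays, at 5.66 and 5.53, stood within 0.25 of day 0. Angpt1, which encodes an angiopoietin that activates Tek, read 5.82 and 6.20 on day 0, 7.54 and 8.03 in 4F cells and 6.67 and 6.62 in GFP cells. Both infected groups were above day 0 for Angpt1, and its rise in 4F cells was 1.78 ± 0.36 (limma adjusted p = 0.021), a call lost when any 1 of the 4 arrays was left out. The difference between 4F and GFP cells, 1.15 on the log2 scale, did not pass (limma adjusted p = 0.091). Epha7, a receptor for ephrins, read 6.68 and 6.88 on day 0 and 8.87 and 8.98 in 4F cells, against 7.09 and 6.64 in GFP cells. Robo2, a receptor for the guidance protein Slit, read 6.20 and 6.45 on day 0 and 7.75 and 8.04 in 4F cells, a rise of 1.57 ± 0.20. Met, the receptor for hepatocyte growth factor, rose by 0.79 in 4F cells and differed by -0.36 in GFP cells without passing there.

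The other large rises were Tmem35a (2.11), known as a chaperone of acetylcholine receptors, the transporter-family gene Mfsd6 (1.81), Fam110c (1.80), the FERM-domain gene Frmd3 (1.76), Plekhh1 (1.65) and the adhesion gene Ceacam1 (1.52). Plekhh1 had the smallest error of these, 0.11, and read 5.65 and 5.50 on day 0 and 7.31 and 7.14 in 4F cells. H2bc4 and Cplane1 completed the 15, and both read high in GFP cells too. H2bc4, a histone H2B gene, read 7.97 and 8.16 on day 0, 10.18 and 9.73 in 4F cells and 8.99 and 9.89 in GFP cells, and the 2 infected groups overlapped. Its rise of 1.89 ± 0.39 over day 0 (limma adjusted p = 0.0234) was not called without the block, and near-identical histone genes can share probes. Cplane1, a ciliogenesis gene, rose by 1.67 in 4F cells and by 1.31 in GFP cells, but its other probe sets gave -0.31 and -0.04, so the gene's change is uncertain.

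**Figure D3:**
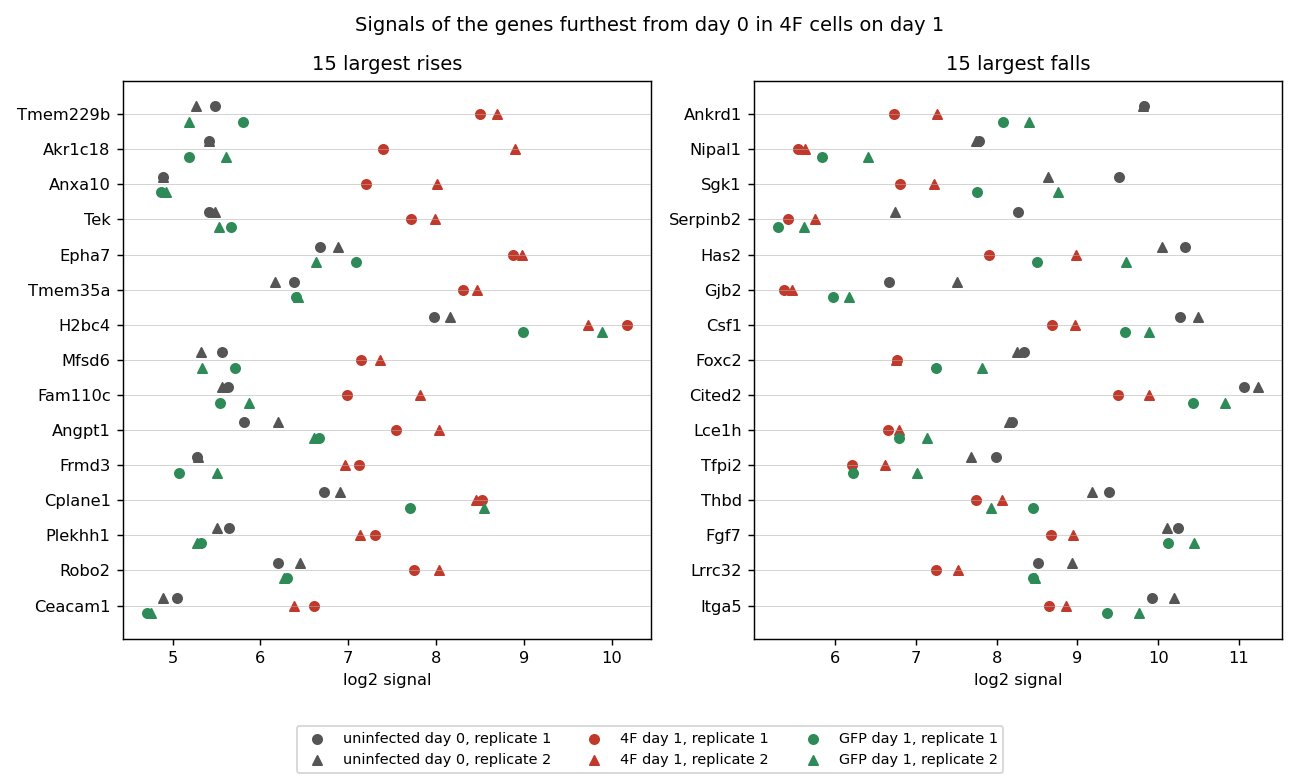
Log2 signal (x axis) of the 15 largest rises (left) and the 15 largest falls (right) among called genes; circles are replicate 1 and triangles replicate 2 of uninfected day 0 (grey), 4F day 1 (red) and GFP day 1 (green). For Tmem229b, Akr1c18, Anxa10 and Tek only the red points lie apart, whereas for H2bc4 and Cplane1 the green points lie beside the red, and for Serpinb2 and Tfpi2 both infected groups lie left of day 0.

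The largest fall was that of Ankrd1, an ankyrin-repeat gene widely used as a readout of YAP activity. It read 9.82 on both day 0 arrays, 6.73 and 7.26 in 4F cells and 8.07 and 8.40 in GFP cells. The groups did not overlap, with GFP cells between the others. The fall from day 0 was -2.83 ± 0.66 in 4F cells (limma adjusted p = 0.0417), and the call was lost when any 1 of the 4 arrays was left out, without the block, after quantile normalization and with trended moderation. The GFP difference of -1.58 and the 4F minus GFP difference of -1.24 did not pass (limma adjusted p = 0.308 and 0.362).

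Fgf7, which encodes keratinocyte growth factor, read 10.24 and 10.11 on day 0, 8.68 and 8.94 in 4F cells and 10.12 and 10.44 in GFP cells. Only 4F cells were low, with a fall of 1.37 ± 0.29 on the log2 scale from day 0 (limma adjusted p = 0.0261, not called without the block) and a difference of -1.47 from GFP cells (limma adjusted p = 0.0121). Csf1, the growth factor of macrophages, read 10.27 and 10.49 on day 0, 8.69 and 8.97 in 4F cells and 9.59 and 9.89 in GFP cells. It fell in 4F cells by 1.55 ± 0.17 (limma adjusted p = 0.00026) and stood 0.91 log2 units lower there than in GFP cells (limma adjusted p = 0.0084), and the fall from day 0 lost its call in 1 alternative, the 4 arrays alone with no block. Itga5, the alpha chain of the fibronectin receptor, read 9.92 and 10.19 on day 0, 8.65 and 8.86 in 4F cells and 9.36 and 9.76 in GFP cells. Its fall of 1.30 ± 0.20 was lost without 4F replicate 1, while its difference from GFP cells was -0.81 (limma adjusted p = 0.0315). Has2, a hyaluronan synthase, read 10.33 and 10.05 on day 0 and 7.90 and 8.98 in 4F cells. Its GFP arrays, at 8.50 and 9.60, overlapped the 4F arrays, and the difference between 4F and GFP cells did not pass (-0.61, limma adjusted p = 0.473).

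Sgk1, a kinase induced by serum and glucocorticoids, read 9.51 and 8.63 on day 0 and 6.81 and 7.23 in 4F cells. Its GFP arrays read 7.76 and 8.75, so replicate 2 of GFP was at the level of replicate 2 of day 0. Foxc2, a transcription factor of mesenchyme, fell by 1.53, Cited2, a transcriptional coregulator, by 1.46, and Lrrc32, which holds latent TGF-beta at the cell surface, by 1.33. For 6 of the 15 largest falls the GFP arrays were also called below day 0, in a comparison where 0.717% of all genes were called and 0.436% were lower: the magnesium transporter Nipal1 (-2.18 in 4F and -1.64 in GFP cells), the protease inhibitor Serpinb2 (-1.92 and -2.05), the gap junction gene Gjb2 (-1.68 and -1.01), the cornified envelope gene Lce1h (-1.44 and -1.20), the protease inhibitor Tfpi2 (-1.42 and -1.22) and thrombomodulin, Thbd (-1.38 and -1.10). Serpinb2 was uneven on day 0, at 8.26 and 6.74.

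Of the 15 largest rises, 12 also differed between 4F and GFP cells on day 1 in limma, where 4.63% of all genes did, and 1 (Cplane1) was called in GFP cells against day 0. Of the 15 largest falls, 5 differed between 4F and GFP cells (Gjb2, Csf1, Fgf7, Lrrc32 and Itga5). Comparisons against day 0 share the day 0 arrays, and those of 4F cells share the 4F arrays, so these counts are not independent of each other. Of the 15 rises, Tmem229b, Tek, Epha7, Tmem35a, Mfsd6, Plekhh1 and Cplane1 stayed called under each alternative that gave a value, as did the falls of Nipal1 and Lce1h. Akr1c18, Robo2, Gjb2 and Csf1 lost the call only in the 4 arrays alone with no block. Without the block the calls of H2bc4, Fam110c, Ankrd1, Sgk1, Has2 and Fgf7 were lost.

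In the list of 26 contractile and SRF target genes, 4 were called lower and none higher, against 0.797% of all genes called lower. All 26 members had a difference below 0, with a median of -0.48, where the median of all genes was -0.009 and 47.0% of all genes lay above 0. The medians within pairs 1 and 2 were -0.33 and -0.57. The called members were Tgfb1i1 (-0.89), a focal adhesion coactivator, Smtn (-0.82), smoothelin, Actn1 (-0.80), alpha-actinin, and Mrtfa (-0.70), the actin-regulated cofactor of SRF. Smtn was the steadiest, at 8.46 and 8.50 on day 0, 7.66 and 7.64 in 4F cells and 8.40 and 8.20 in GFP cells. Srf itself differed by -0.66 (limma adjusted p = 0.62), Tagln by -0.57 and the smooth muscle actin Acta2 by -0.11, and none of these passed. Without the block, without 4F replicate 1, without 4F replicate 2 or without day 0 replicate 1, 1 member was called, and without day 0 replicate 2, 2 were called. The list median stayed between -0.412 and -0.504 in these fits. In GFP cells no member was called against day 0 in limma, none had an unadjusted p under 0.05, and the median was -0.05.

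The 15 CCN and YAP target genes had 5 called lower, none higher and a median of -0.68, and 13 of the 15 lay below 0. The called members were Ankrd1, Crim1 (-1.27), a transmembrane BMP regulator, Dlc1 (-1.08), Axl (-0.68), a receptor tyrosine kinase, and Tead1 (-0.65), a DNA-binding partner of YAP. Crim1 read 10.20 and 10.61 on day 0 and 8.98 and 9.30 in 4F cells. The second probe set of Dlc1 gave -0.28. The angiomotin gene Amotl2 (-1.19, limma adjusted p = 0.074) and the matricellular genes Ccn1 (-1.03) and Ccn2 (-0.79) did not pass. The count was 3 without the block, 0 without 4F replicate 1, 1 without 4F replicate 2, 3 without day 0 replicate 1 and 1 without day 0 replicate 2, with medians from -0.611 to -0.762. In GFP cells the YAP list had no call against day 0 in limma, 4 members at an unadjusted p under 0.05 and a median of -0.40. Neither list had more than 2 members called between 4F and GFP cells, where 1.29% of all genes were called lower: Smtn and Mrtfa passed in the contractile list, and no YAP target did, with 5 at an unadjusted p under 0.05 in limma.

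The 250 bases before the start sites of these genes were searched on both strands for the TEAD motif CATTCC and for the CArG box to which SRF binds, a search chosen after the values were seen. Promoter sequences of 15614 genes were found in RefSeq (GRCm38.p6). The TEAD motif occurred in 13.2% of all of them, in 17.5% of those of genes called lower and in 11.6% of those of genes called higher. It was found in 8 of 11 of the YAP list and also in 9 of 22 of the contractile list. The CArG box occurred in 1.45% of all promoters, in 1.59% of those of genes called lower and in 5 of 22 of the contractile list, and the 2 motifs overlapped in no window. Stretches of 3 called YAP targets and of 3 contractile genes are shown because they hold the matches behind these shares, with motif matches in capitals and each sequence 5′ to 3′ on the strand of its gene.
Ankrd1, TEAD motif, chr19:36119922-36120094, minus strand: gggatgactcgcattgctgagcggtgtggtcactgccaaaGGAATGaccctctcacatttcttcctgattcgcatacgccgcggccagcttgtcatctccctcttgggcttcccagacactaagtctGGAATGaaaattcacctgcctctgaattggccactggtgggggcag
Crim1, TEAD motif, chr17:78200129-78200214, plus strand: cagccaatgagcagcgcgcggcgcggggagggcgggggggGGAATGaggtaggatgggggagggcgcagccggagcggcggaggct
Axl, TEAD motif, chr7:25788921-25788983, minus strand: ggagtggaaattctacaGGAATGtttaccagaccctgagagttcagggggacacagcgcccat
Cnn2, CArG box, chr10:79988504-79988593, plus strand: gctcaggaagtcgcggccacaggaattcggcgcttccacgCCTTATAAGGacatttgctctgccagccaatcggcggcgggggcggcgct
Vcl, CArG box, chr14:20929148-20929220, plus strand: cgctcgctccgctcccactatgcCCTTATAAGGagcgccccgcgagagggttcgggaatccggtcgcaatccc
Srf, CArG box, chr17:46556175-46556284, minus strand: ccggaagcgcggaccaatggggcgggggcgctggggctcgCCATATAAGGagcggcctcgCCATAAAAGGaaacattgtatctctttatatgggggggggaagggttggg
Ankrd1 and Srf each hold 2 matches in the stretch shown and the others 1. Ankrd1, Crim1 and Axl were called lower, whereas Cnn2 (-0.78, limma adjusted p = 0.12), Vcl (-0.54) and Srf did not pass. A match is a run of letters and no measure of binding. The contractile and YAP lists were written as targets of SRF and YAP, so their motif shares are no result of these arrays. Genes called lower, which the arrays did give, held the TEAD motif in 17.5% against 13.2% of all genes. For the CArG box the shares were 1.59% against 1.45%.

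**Figure D4:**
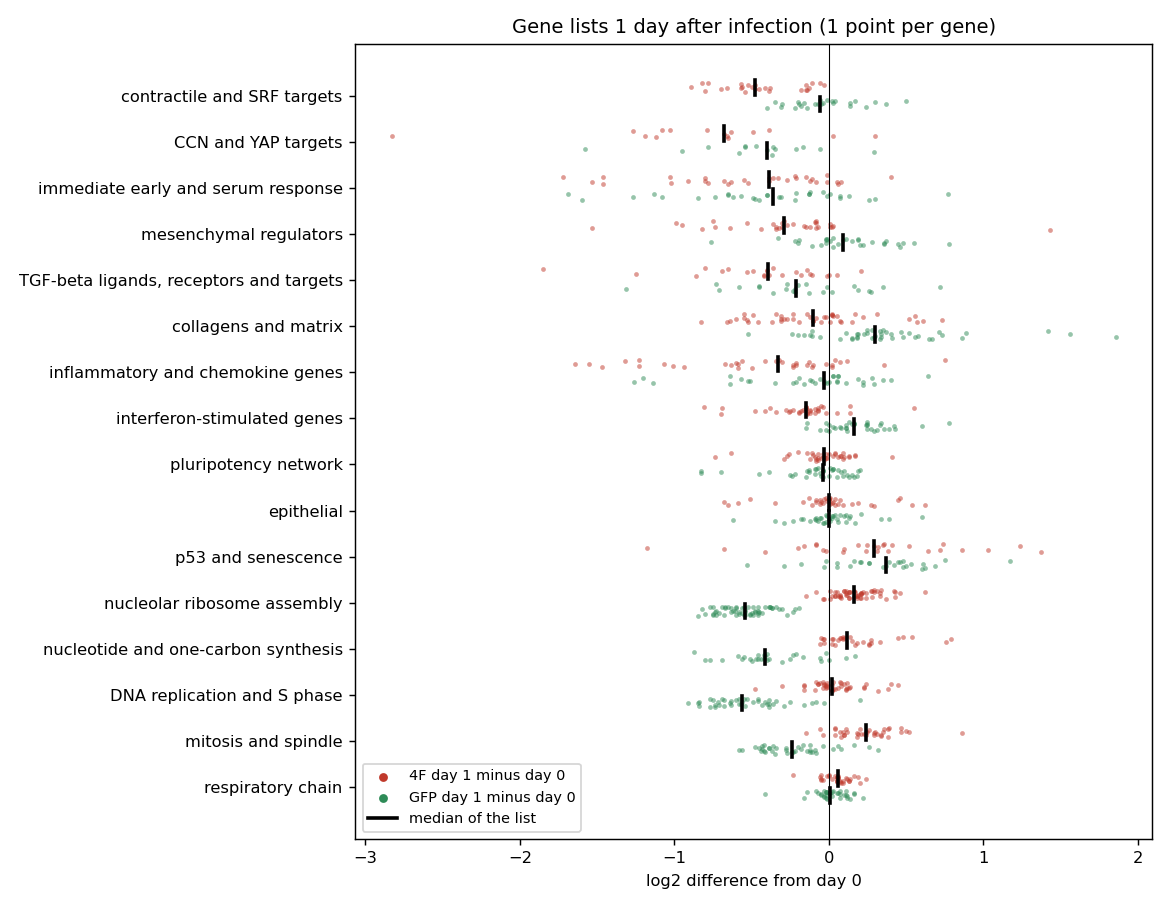
Log2 difference from day 0 (x axis) of every measured member of 16 gene lists (y axis), red for 4F day 1 and green for GFP day 1, with 1 point per gene and a black bar at each list's median. The contractile list lies below 0 in 4F cells (median -0.48) and around 0 in GFP cells (-0.05), and the nucleolar list lies slightly above 0 in 4F cells (0.16) and below 0 in GFP cells (-0.54).

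Fibroblast identity genes gave few calls against day 0. Of 31 mesenchymal regulators, Foxc2 alone was called against day 0, with a list median of -0.29 in 4F and 0.09 in GFP cells. Snai1 (-0.74), Twist2 (-0.64) and Snai2 (-0.53), which repress epithelial genes, and the receptors Pdgfra (-0.95) and Pdgfrb (-0.75) did not pass against day 0, and Meox2 differed upward by 1.43 without passing (limma adjusted p = 0.073). Between 4F and GFP cells 28 of the 31 lay below 0, in a comparison where 1.29% of all genes were called lower. Called lower there were 4 members, Pdgfrb (-1.23), Snai1 (-0.94), Foxc1 (-0.80) and Twist2 (-0.61). That count was 1 without the block, 0 without 4F replicate 1 or GFP replicate 1, and 1 without 4F replicate 2 or GFP replicate 2. Of 45 collagen and matrix genes none was called against day 0 in limma, 7 had an unadjusted p under 0.05, and the median was -0.10. Col1a1 differed by -0.31 and Fn1 by -0.23. In GFP cells 37 of the 45 lay above 0, with a median of 0.30. Between 4F and GFP cells 43 lay below 0, with a median of -0.43 and 1 called lower in limma. In the TGF-beta list 1 of 24 fell against day 0, Ltbp1 (-0.65), which stores latent TGF-beta in matrix. Among 32 immediate early and serum-response genes none passed in limma and 10 had an unadjusted p under 0.05, while 28 lay below 0 with a median of -0.39. Their pair medians were uneven, -0.69 for replicate 1 and -0.18 for replicate 2, and the GFP median was -0.36. Hbegf, for example, differed by -1.72 in 4F and -1.69 in GFP cells.

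Called signalling ligands and receptors went both ways. Of all genes, 1.05% were called higher and 0.797% lower against day 0. Of 32 growth factor and receptor genes, Tek and Met rose, and Fgf7, the VEGF receptors Flt1 (-0.95) and Kdr (-0.73), and Vegfc (-0.87), which encodes a VEGF family ligand, fell. Vegfc read 7.68 and 7.53 on day 0, 6.66 and 6.80 in 4F cells and 7.16 and 7.19 in GFP cells, and its fall lost its call in 1 alternative, the 4 arrays alone with no block. Bmp4, a BMP ligand, fell by 1.14, from 8.07 and 8.81 to 7.05 and 7.55, and was 0.95 log2 units lower than in GFP cells (limma adjusted p = 0.028). No other of the 19 BMP and Id genes was called, and Id1, Id2 and Id3 differed by -0.43, -0.53 and -0.65. Of 36 inflammatory and chemokine genes 2 fell, Csf1 and Il11 (-1.07 in 4F and -1.14 in GFP cells). The chemokines Cxcl5 (-1.47), Ccl2 (-1.32) and Cxcl12 (-1.23) did not pass, with GFP differences of -0.03, 0.05 and 0.40. None of 36 interferon-stimulated genes passed or had an unadjusted p under 0.05 in limma, and their median was -0.15. In the Wnt list of 28 genes, Rspo3, an enhancer of Wnt signalling, rose by 1.27, with 0.78 in GFP cells.

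Few genes of growth and biosynthesis passed against day 0 in 4F cells, while more differed between 4F and GFP cells. The 59 nucleolar ribosome assembly genes had no call in either direction against day 0 in limma, with 9 at an unadjusted p under 0.05 and 55 above 0, and a median of 0.16. In GFP cells 10 of the 59 were called below day 0, where 0.436% of all genes were, and the median was -0.54. Between 4F and GFP cells 54 of the 59 were called higher, where 3.35% of all genes were, with a median of 0.71. Both counts depended on single arrays. Those called higher in 4F than in GFP cells numbered 35 without the block, 7 without 4F replicate 1, 20 without 4F replicate 2, 3 without GFP replicate 1, 50 without GFP replicate 2 and 0 in the 4 arrays alone with no block, with medians from 0.574 to 0.852 over the left-out arrays. Those called below day 0 in GFP cells numbered 3 without the block, 0 without GFP replicate 1, 13 without GFP replicate 2, 2 without day 0 replicate 1, 1 without day 0 replicate 2 and 0 in the 4 arrays alone with or without the block. Dkc1, dyskerin of the small nucleolar ribonucleoproteins, read 9.21 and 9.38 on day 0, 9.62 and 9.65 in 4F cells and 8.32 and 8.57 in GFP cells. Its 4F arrays were above day 0 by 0.34 without passing (limma adjusted p = 0.14), and its GFP arrays were lower by 0.85 (limma adjusted p = 0.0031). Its distance from day 0 was larger in GFP than in 4F cells.

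Small parts of the same machinery did rise over day 0, where 1.05% of all genes were called higher. Of 26 RNA polymerase I and III genes, Polr1b rose by 0.64 and Polr1e by 0.61, both subunits of the polymerase that makes ribosomal RNA. Polr1b read 8.38 and 8.56 on day 0, 9.21 and 9.01 in 4F cells and 7.97 and 7.77 in GFP cells. Of 30 nucleotide and one-carbon genes, Shmt1 (0.79), which feeds one-carbon units, and Prps2 (0.76), which makes the sugar phosphate for nucleotides, rose. In GFP cells 3 of the 30 were called lower, where 0.436% of all genes were. Ppat, which starts purine synthesis, read 9.31 and 9.12 on day 0, 9.63 and 9.69 in 4F cells and 8.18 and 8.52 in GFP cells, a GFP fall of 0.87 (limma adjusted p = 0.028). Of 30 mitochondrial ribosome and import genes, Timm8a1 rose by 0.93, with a second probe set at 0.90, and Mrpl16 by 0.51. Timm8a1 went the other way in GFP cells (-0.82, limma adjusted p = 0.0487), and the 2 groups differed by 1.75 (limma adjusted p = 0.000235). 

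Of 43 DNA replication genes none passed in limma and 4 had an unadjusted p under 0.05. Their median was 0.02 in 4F and -0.56 in GFP cells, where 3 were called lower, against 0.436% of all genes. Among the 3 was Cdc6 (-0.75), a replication licensing gene. For 4F against GFP cells the share of all genes called higher was 3.35%. Between 4F and GFP cells 16 of these 43 were called higher, with 7 left without the block, 0 without 4F replicate 1, 2 without 4F replicate 2, 0 without GFP replicate 1 and 13 without GFP replicate 2. The 3 GFP calls came to 1 without the block or without day 0 replicate 2 and to 0 without GFP replicate 1 or without day 0 replicate 1. Of 39 mitosis genes none passed in either group in limma, with 2 in 4F and 1 in GFP cells at an unadjusted p under 0.05, medians of 0.24 in 4F and -0.24 in GFP cells, and Nusap1 furthest from 0 at 0.86. In the p53 list of 29 genes, Perp (1.37), a membrane gene that p53 activates, Trp53inp1 (1.24) and Ccng1 (0.41) rose in 4F cells. Of all genes, 1.05% did. Trp53inp1 (1.17) and Ccng1 (0.46) also rose in GFP cells, where 0.281% of all genes did. Perp differed by 0.60 in GFP cells without passing (limma adjusted p = 0.261). Its difference between 4F and GFP cells, 0.78, did not pass either (limma adjusted p = 0.0719). The list median was 0.29 in 4F and 0.37 in GFP cells. Mdm2 differed by 0.64 without passing, and Cdkn2a by 0.10. Trp53inp1 was uneven on day 0, at 8.02 and 8.86. Nupr1, a stress gene, was the 1 of 27 amino acid response genes that rose (1.04, with 0.79 in GFP cells).

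Of 39 members of the pluripotency list, 1 was called against day 0, Klf5, which fell by 0.74 in 4F cells and by 0.83 in GFP cells and was not called without the block. The list median was -0.03. For 4F against GFP cells 3.35% of all genes were called higher and 1.29% lower. Between 4F and GFP cells 2 members were called higher, Rif1 (1.12) and Mybl2 (0.96), and neither was called without 4F replicate 1. Nanog, a core pluripotency factor, read 5.72 and 5.74 on day 0 and 5.70 and 5.82 in 4F cells, overlapping ranges, and its signal was 9.11 on the single day 10 array. Of 38 epithelial genes none passed against day 0 in limma, 6 had an unadjusted p under 0.05, and the median was 0.00. Cxadr, a tight junction receptor, read 6.75 and 6.61 on day 0, 7.20 and 7.41 in 4F cells and 6.38 and 6.27 in GFP cells. It did not pass against day 0 (0.62, limma adjusted p = 0.156) but did against GFP cells (0.98, limma adjusted p = 0.0127). Cdh3, P-cadherin, was the other member called between 4F and GFP cells, and was lower (-1.19, limma adjusted p = 0.0184), and Cxadr was not called with any 1 array of these groups left out. The keratin genes Krt7 (-0.68), Krt18 (-0.65) and Krt8 (-0.35) did not pass.

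Lists for metabolism and housekeeping showed no calls against day 0 in limma: 29 cholesterol and fatty acid genes (median -0.03), 22 glycolysis genes (0.10), 35 respiratory chain genes (0.06), 34 chromatin regulators (0.04), 20 aminoacyl-tRNA synthetases (0.01), 17 translation factors (0.01), 24 chaperones (0.12), 23 unfolded protein response genes (-0.19), 14 Notch and Hes genes (0.10) and 20 apoptosis genes (-0.08). Members at an unadjusted p under 0.05 in limma numbered 1, 7, 1, 3, 0, 0, 3, 5, 3 and 5 in that order, against 2133 of 19938 genes. The share was above that of all genes for glycolysis (7 of 22), chaperones (3 of 24), unfolded protein response (5 of 23), Notch (3 of 14) and apoptosis (5 of 20). In GFP cells 3 glycolysis genes were called above day 0, and 1 synthetase and 1 chromatin regulator below. The shares of all genes were 0.281% above and 0.436% below. The cholesterol list had a GFP median of 0.49 (27 of 29 above 0) and a 4F minus GFP median of -0.54. Between 4F and GFP cells 4 translation factors, 4 chaperones, 3 chromatin regulators, 2 synthetases and 1 glycolysis gene were called higher. Called lower were 2 glycolysis genes and 1 each of the cholesterol, unfolded protein, chromatin and Notch lists. In that comparison 3.35% of all genes were called higher and 1.29% lower.

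Of 18 endothelial markers, Tek rose and Flt1, Kdr and Flt4 (-0.63) fell in 4F cells. In GFP cells Flt4 also fell (-0.52, limma adjusted p = 0.0291), and Kdr (-0.48) and Flt1 (-0.39) did not pass. Of the others, Pecam1 (0.08), Cdh5 (-0.04), Tie1 (-0.05) and Vwf (0.07) did not pass and had day 0 signals between 5.2 and 6.1 on the first array. The mean signal of the 18 was 6.13 and 6.02 on day 0, 6.07 and 6.08 in 4F cells and 6.02 and 5.97 in GFP cells. No endothelial marker other than Tek was called higher. In the keratinocyte list 2 of 22 rose, Perp and Ly6d (0.74). In the neural list 1 of 22 did, Syt1 (0.87), and in the muscle list 1 of 23, Mef2c (1.04). Of all genes, 1.05% were called higher. Ly6d differed by 0.52 in GFP cells without passing (limma adjusted p = 0.106), and neither Perp nor Ly6d passed between 4F and GFP cells. No marker of macrophages (20), adipocytes (14), cartilage and bone (14) or red blood cells (8) was called in limma, with 0, 1, 3 and 0 at an unadjusted p under 0.05. Among list members, the calls of Ltbp1, Kdr, Polr1b, Shmt1, Mrpl16, Perp, Trp53inp1, Ccng1, Nupr1 and Mef2c were lost without the block.

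The genes that led on day 1 then parted ways. Akr1c18 went from a mean of 8.15 on day 1 to 12.15 on day 3 and stood at 9.22 on the single day 12 array, while GFP means stayed between 5.13 and 5.61. Tmem229b and Tek were at 9.89 and 8.62 on day 2 and changed by less than 1 log2 unit to day 8. Tek was also at 6.92 in GFP cells on day 8. Anxa10 was at 7.60 on day 1, 8.10 on day 3 with arrays of 7.04 and 9.17, and 4.99 on day 8. Angpt1 went from 7.79 on day 1 to 6.38 on day 8 in 4F cells while GFP means went from 6.64 to 8.77, so its order between the arms was turned. Epha7 reached 8.93 in 4F cells on day 1 and GFP cells came to 8.04 by day 8. Among the falls, Fgf7 went from 10.18 on day 0 to 8.81 on day 1 and 6.92 on day 8, with GFP means at 10.28 and 11.18. Itga5 was at 7.53 on day 2 and Ankrd1 at 5.54, and the Ankrd1 GFP arrays on day 8 read 6.06 and 9.52. Foxc2 was at 6.76 on day 1 and 5.76 on day 8. These later means are descriptions and were not tested here.

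**Figure D5:**
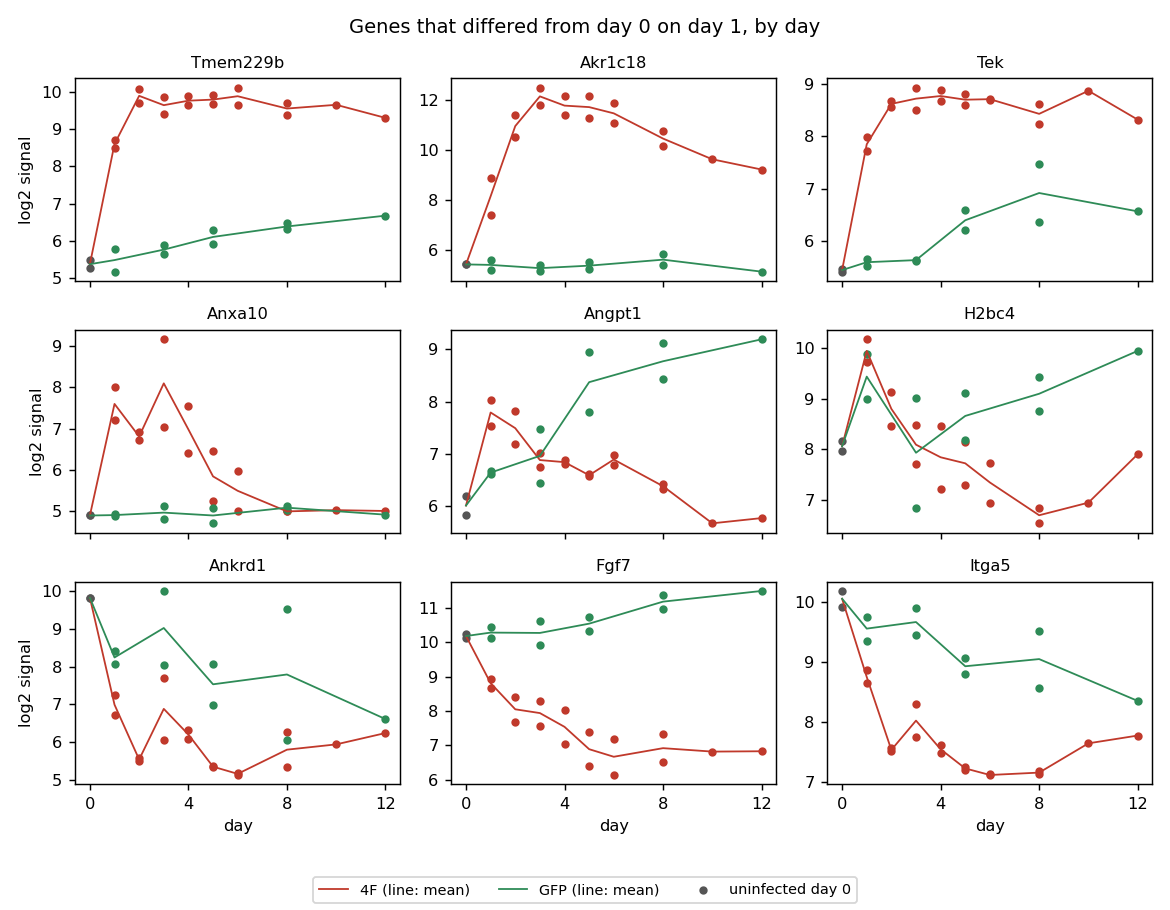
Log2 signal (y axis) of 9 genes against day (x axis); each point is an array, red for 4F, green for GFP and grey for uninfected day 0, and lines join the means. Akr1c18 in 4F cells climbs from 8.15 on day 1 to 12.15 on day 3, Anxa10 returns to 4.99 by day 8, the Angpt1 lines cross, and the Fgf7 lines part from day 1.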

How the data were processed

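Total RNA was hybridized to Affymetrix arrays, per the labels' protocols. The values are log2 signals of probe sets as the authors deposited them, used without further scaling. Their normalization method is not given here. Column medians lay between 6.04 and 6.17. Where a gene had several probe sets (999 genes), that with the highest mean over the 31 arrays was used. Entrez IDs of 21698 probe sets were found in the RefSeq gene table. Limma 3.58.1 in R 4.3.3 was fitted to the 24 numbered arrays, with a mean for each of 12 groups and the replicate number as a block (11 residual and 3.18 prior degrees of freedom), so the spread of later days, which is larger, enters the errors. Genes were called at a Benjamini-Hochberg adjusted p under 0.05 and the procedure was tested on simulated data. These data had noise of equal size in all groups of a gene, so they could not check the effect of unequal spread. The pairing follows the labelling amounts: across genes, the replicate difference of 4F day 1 correlated with that of day 0 at 0.539, and 65 of 66 pairs of groups exceeded 0.1. Most genes were named by rule: the factors delivered, the 15 largest called rises and falls, and called members of the gene lists (up to 4 each). Other list members, Met and Tead1 among them, are given as values. Rb1, Car12, Fgf13 and Il6ra were picked by hand from the called genes, and their calls under the alternatives are not given. The comparison, the genes and the lists were chosen with earlier results of these data known, and the motif search and the gene families after the values were seen. Array number limits the precision. Alternatives were no block, the 4 arrays alone, other scalings, other probe set rules, other moderation and each array left out. Tables were made with Python 3.11.15 and pandas 2.3.3.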

Additional observations from a re-analysis of the deposited data

Results flagged for a closer look

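The change since day 0 differed between 4F and GFP cells on day 1 for 30 named genes, by the test of 4F against GFP day 1 in the same limma fit (adjusted p under 0.05). Both changes share the day 0 arrays, so this difference is that between the 4F and the GFP arrays alone. Values are 4F minus GFP on the log2 scale. Among the largest rises these were Tmem229b (3.11), Akr1c18 (2.75), Anxa10 (2.71), Tek (2.26), Epha7 (2.06), Tmem35a (1.97), Plekhh1 (1.92), Ceacam1 (1.76), Frmd3 (1.75), Mfsd6 (1.73), Fam110c (1.70) and Robo2 (1.60). Among the largest falls they were Fgf7 (-1.47), Lrrc32 (-1.07), Csf1 (-0.91), Itga5 (-0.81) and Gjb2 (-0.66). Genes of biosynthesis were higher in 4F cells: the polymerase I genes Polr1b (1.24) and Polr1e (0.87), Shmt1 (1.25) and Prps2 (0.59). The mitochondrial genes Timm8a1 (1.75) and Mrpl16 (0.58) and the MYC antagonist Mxi1 (0.42) were higher too. Contractile genes Smtn (-0.64) and Mrtfa (-0.51) and the ligands Bmp4 (-0.95) and Vegfc (-0.45) were lower. Cxadr (0.98) and Mef2c (0.94) were higher.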

How the results depend on the processing

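Counts are given as higher and lower genes. For 4F against day 0 (209 and 159), they were 102 and 65 with no replicate block, 717 and 622 in the 4 arrays alone with the block, 28 and 6 in the 4 arrays with no block, 108 and 69 without moderation, and 65 and 45 with a log2 difference of at least 1. Leaving out 1 array gave 39 to 148 higher and 17 to 72 lower. For GFP against day 0 (56 and 87), they were 8 and 10 with no block, 0 and 0 in the 4 arrays with or without the block (3427 and 2117 genes at an unadjusted p under 0.05 in limma), 14 and 12 without moderation, and 15 and 11 with a difference of at least 1. Median centring gave 35 higher (23.0% of calls, against 39.2% as deposited), and quantile normalization gave 56 lower. Leaving out 1 array gave 7 to 62 higher and 1 to 98 lower. For 4F against GFP (667 and 257), they were 283 and 78 with no block, 1188 and 741 in the 4 arrays with the block, 0 and 0 without it (3170 at an unadjusted p under 0.05 in limma), 355 and 102 without moderation, and 72 and 24 with a difference of at least 1. Leaving out 1 array gave 53 to 597 higher and 7 to 224 lower. The cause of these shifts was not tested; fewer arrays leave fewer degrees of freedom. The other counts were within 1.5 times. Of the 368 genes, 167 stayed called with no block, 321 after centring, 330 after quantile normalization and 56 to 155 with 1 array left out, and none reversed. Of 60 called named genes, 9 stayed called under each of the alternatives that gave them a value, and 15 did if the 4 arrays with no block are set aside. Signals near the bottom of the range may lie in the background, which was not measured.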

Other observations

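Other families were looked up after the values were seen, so their counts are descriptions. Of all genes, 1.05% were called higher and 0.797% lower in 4F cells against day 0. Of 13 Eph receptors, which read ephrins on neighbouring cells, 3 rose in 4F cells: Epha7 (2.15), Epha3 (1.34) and Epha1 (1.10). The median of the 13 was 0.12. Of 8 ephrins 1 rose, Efna3 (1.05). Epha2, the Eph receptor with the highest signal on the first day 0 array, differed by -0.84 without passing. Receptors of axon guidance went both ways: Robo2 rose, while Unc5b (-1.22) and Unc5c (-0.92), which bind netrin, and Nrp1 (-1.23), a coreceptor of VEGF and semaphorins, fell. Of 36 histone genes 3 rose, H2bc4, H1f2 (1.18, and 1.08 in GFP cells) and H4c9 (1.16), and the median of the 36 was 0.09.

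Among other called genes, picked by hand, Rb1, the retinoblastoma tumour suppressor, rose by 1.44 and the carbonic anhydrase gene Car12 by 1.15. Fgf13 rose by 1.23 and the interleukin receptor gene Il6ra by 1.01.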
